A study of Mus musculus with 16 samples.

Results

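Of the 54331 genes listed in the expression table, 10 genes of MHC class I presentation were followed through all 8 libraries. They were taken by symbol: the heavy chains H2-K1, H2-D1 and H2-T23, the light chain B2m, the peptide-loading genes Tap1, Tap2 and Tapbp, the immunoproteasome subunits Psmb8 and Psmb9, and the regulator Nlrc5. All 10 were found, and all 10 had a mean of at least 10 normalized counts, the level from which 15527 genes were tested.

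By their labels, the libraries came from primary mouse lung fibroblasts of strain C57BL/6, infected in culture with an adenovirus (AdV) and sequenced as total RNA 72 h later. Cells labelled ST2 KO, which lack the receptor for the cytokine IL-33, gave 1 library with full-length IL-33 (FL), 1 with mature IL-33 (M) and 2 with a virus coding for nothing (NULL). Wild-type (WT) cells gave the same 4 libraries. Every group carried a virus, so no uninfected cells stand beside them. The knockout allele, the virus dose, the age and sex of the mice and whether animals were pooled are not given in the sources used here. Nothing states that replicates came from separate cultures or mice, so the spread behind each p-value is that of these libraries alone and may be technical.

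MHC class I molecules show peptides from inside the cell to CD8 T cells and are made by nearly all nucleated cells, fibroblasts included. The proteasome cuts cytosolic proteins, the TAP transporter carries the peptides into the endoplasmic reticulum, and tapasin helps load them onto a heavy chain paired with beta-2-microglobulin. Interferons are known to raise the whole pathway, through IRF and STAT factors and through NLRC5 acting at an enhanceosome of RFX, CREB/ATF and NF-Y proteins.

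The upstream sequences below show what the promoters of the heavy chains and B2m share, beside the stretch between Psmb9 and Tap1. They are RefSeq sequences on GRCm38.p6, written 5′ to 3′ on the strand named, and run up to the base before the annotated start. Capitals mark an interferon response motif (GAANNGAAA, or the same with 1 more A before the NN), an NF-kappaB motif, a CRE-like TGACG or a CCAAT box, on either strand.
H2-K1, chr17:34000334-34000513, minus strand: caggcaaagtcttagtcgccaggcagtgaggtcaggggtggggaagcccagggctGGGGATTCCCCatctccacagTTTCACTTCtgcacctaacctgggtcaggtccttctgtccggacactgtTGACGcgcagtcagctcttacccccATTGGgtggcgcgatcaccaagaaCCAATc
H2-D1, chr17:35262914-35263093, plus strand: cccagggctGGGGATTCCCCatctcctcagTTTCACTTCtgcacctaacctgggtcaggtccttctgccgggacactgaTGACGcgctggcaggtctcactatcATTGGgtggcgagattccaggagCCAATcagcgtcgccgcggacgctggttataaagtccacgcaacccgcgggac
B2m, chr2:122147507-122147686, plus strand: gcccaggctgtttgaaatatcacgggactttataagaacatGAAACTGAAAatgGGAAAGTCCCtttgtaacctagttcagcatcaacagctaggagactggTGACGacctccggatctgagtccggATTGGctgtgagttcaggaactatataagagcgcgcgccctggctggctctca
H2-T23, chr17:36032702-36032881, minus strand: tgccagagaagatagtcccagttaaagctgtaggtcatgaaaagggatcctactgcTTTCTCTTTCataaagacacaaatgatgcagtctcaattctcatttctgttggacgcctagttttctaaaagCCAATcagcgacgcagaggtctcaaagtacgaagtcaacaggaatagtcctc
Psmb9-Tap1, chr17:34187331-34187555, plus strand: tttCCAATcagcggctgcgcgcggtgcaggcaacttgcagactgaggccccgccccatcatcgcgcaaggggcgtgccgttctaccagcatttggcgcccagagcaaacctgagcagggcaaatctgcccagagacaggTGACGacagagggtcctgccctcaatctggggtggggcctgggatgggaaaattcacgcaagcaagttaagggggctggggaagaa

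The last stretch is the 225 bases between the divergent RefSeq starts of Psmb9 (to the left) and Tap1 (to the right). The table of promoters held 8 of the 10 genes, and Tap2 and Nlrc5 were not among them. In the 250 bases upstream, the interferon response motif was found in 4 of these 8 genes (H2-K1, H2-D1, H2-T23 and B2m), against 8.81% of 32817 promoter windows. The NF-kappaB motif was found in 3 (H2-K1, H2-D1 and B2m), against 3.9% of windows. TGACG was found in 5 of 8, against 17.7% of windows, and CCAAT in 7 of 8, against 33.8%. For Psmb9 and Tap1 the TGACG is the same bases of their shared stretch, as is the CCAAT, so these counts hold each match for both genes. In H2-K1 and H2-D1 the NF-kappaB motif matched at 2 overlapping positions on both strands. The promoters of these 2 genes are close copies, with 172 of 192 aligned bases identical (89.6%). H2-K1 has 2 RefSeq starts, and the printed stretch runs up to the downstream one. A match is a description of letters and no evidence of binding.

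In GENCODE's annotation of GRCm38, 8 of the 10 genes lie on chromosome 17, in the mouse MHC. From left to right these are Tapbp (33915899 to 33929292), H2-K1 (33996017 to 34000347), Psmb9 (34181987 to 34187764), Tap1 (34187553 to 34197225), Psmb8 (34197721 to 34201454), Tap2 (34203527 to 34216321), H2-D1 (35262730 to 35267499) and H2-T23 (36029773 to 36032855). B2m lies on chromosome 2 (122147686 to 122153083) and Nlrc5 on chromosome 8 (94434356 to 94527272). Psmb9 and Tap1 overlap at their ends on opposite strands, and the sources used here do not state whether counting used strand. The heavy chains also share sequence with other genes. Of 31-base stretches in their transcripts, 22.8% in H2-K1, 26.7% in H2-D1 and 24.5% in H2-T23 occur in another gene as well. Their counts are therefore less certain than those of B2m and Nlrc5, which share none. Psmb9 also shares none by this search. It compared transcripts on their own strand only, so it does not cover the overlap of Psmb9 with Tap1.

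Each library held a normalized total of 2.39e+07 to 2.92e+07 counts, with 22193 to 23645 genes above 0. The deposited table for fibroblasts and the one for unseparated lung cells hold the same values (2 of 434648 cells not identical), so the cell type is known only from the titles of the columns, and the unseparated cells were not analysed here. Il1rl1, the gene of ST2, stood at 79.2 (FL), 85.2 (M), 73.1 and 69.2 normalized counts in KO libraries, against 33.9 (FL), 70.7 (M), 18.3 and 106.2 in WT libraries, and a whole-gene count does not show a missing exon. The genotype was therefore taken from the labels. The fibroblast collagen gene Col1a1 was at 217130 to 381061 normalized counts, lowest in the WT M library. Cd3e, which defines T cells, was at 0 in all 8 libraries, Flt3 (dendritic cells) reached at most 2.15 and Cd79a (B cells) at most 3.53. Adgre1, which defines macrophages, was at 332 to 486, so leukocyte transcripts were present. The WT M library stood apart, with a summed level of 44497 over the 10 macrophage markers, against 18763 to 22271 in the other 7 libraries. Its 5 mesothelial markers summed to 3654 (387 to 1070 in the others).

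**Figure D1:**
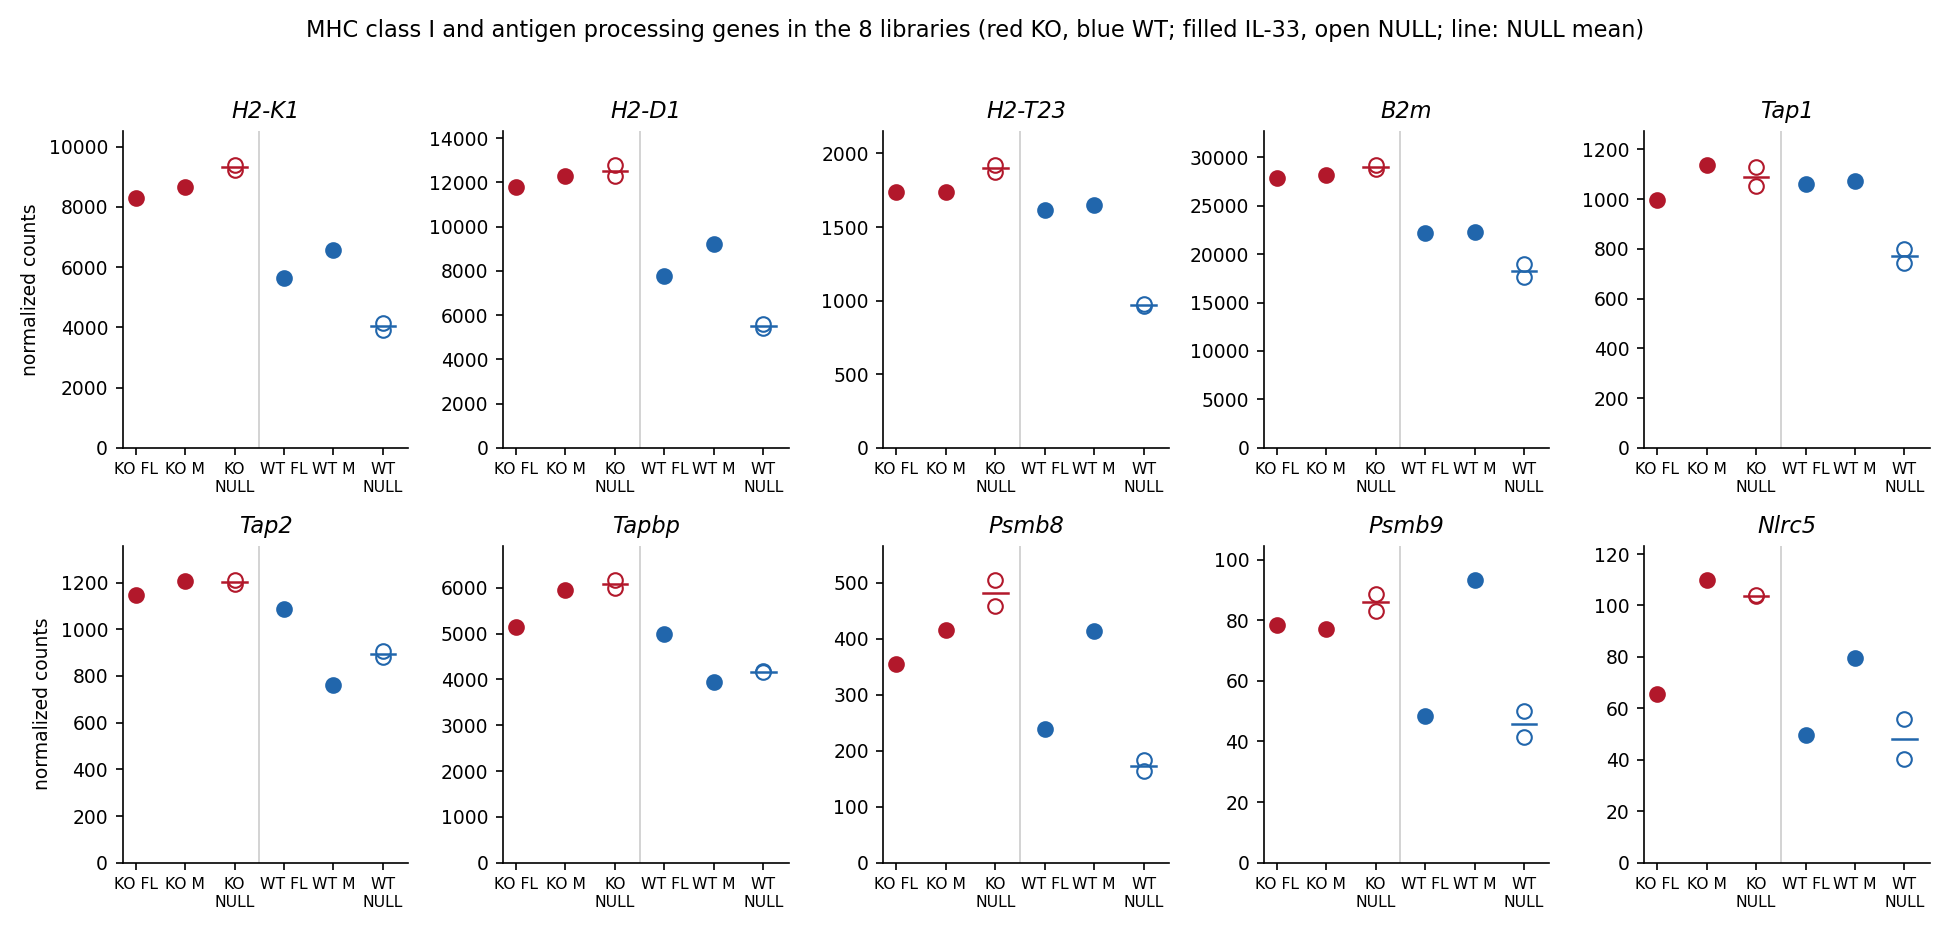
Normalized counts of the 10 genes in each library, on linear axes from 0. Red points are KO and blue points WT, filled points carry IL-33 (FL or M) and open points are NULL libraries with their mean as a line. For H2-K1, H2-D1, H2-T23 and B2m all 4 KO libraries lie above all 4 WT libraries, and the WT NULL pair is the lowest.

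The first comparison asks how cells without ST2 differed from WT cells when the virus carried no IL-33. With NULL virus, the class I genes were higher in KO cells. Past an adjusted p of 0.05, 6 of the 10 genes rose and 0 fell, while 2.58% of all tested genes rose and 1.70% fell (4.28% in all). The 10 genes were chosen with earlier results of these data known, so their count beside this share is no independent test. The 6 were H2-K1, H2-D1, H2-T23, B2m, Tap1 and Psmb8. The median log2 change of the 10 genes was 0.93, against -0.0022 over all tested genes.

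H2-K1 encodes the classical heavy chain H-2K, which presents peptides to CD8 T cells. Its level was 8308 (FL), 8673 (M), 9222 and 9403 (NULL) normalized counts in KO libraries, against 5652 (FL), 6570 (M), 3920.0 and 4156 (NULL) in WT libraries. The genotypes did not overlap, and within WT both IL-33 libraries were above both NULL libraries. With NULL virus the KO mean of 9312 ± 128 (SD, n = 2) stood against 4038 ± 167 (SD, n = 2) in WT, a 2.31-fold rise (log2 1.21, SE 0.09, adjusted p = 0.0015).

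H2-D1 encodes H-2D, the other classical heavy chain of this strain. It was at 11798 (FL), 12306 (M), 12275 and 12801 (NULL) normalized counts in KO libraries and at 7767 (FL), 9199 (M), 5407 and 5609 (NULL) in WT libraries. The order of the libraries was nearly that of H2-K1, and again no KO library overlapped a WT library. The rise with NULL virus was 2.28-fold (log2 1.19, SE 0.10, adjusted p = 0.0020). Per kilobase of exon, H2-D1 stayed at 1.52 to 1.62 times the level of H2-K1 in all 8 libraries.

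H2-T23 encodes Qa-1, a non-classical heavy chain that presents leader peptides of other class I chains to CD94/NKG2 receptors on NK cells. Its levels were 1737 (FL), 1741 (M), 1877 and 1924 (NULL) normalized counts in KO libraries, against 1619 (FL), 1647 (M), 963 and 977 (NULL) in WT libraries. The WT NULL pair stood alone at the low end, and the WT IL-33 libraries came close to the KO range without reaching it. With NULL virus H2-T23 was 1.96-fold higher in KO cells (log2 0.97, SE 0.07, adjusted p = 0.0013).

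B2m encodes beta-2-microglobulin, the light chain that all these heavy chains need to reach the surface. It had by far the highest level per kilobase of the 10 genes, with a mean of 28351 normalized counts per kilobase over the 8 libraries, against 3739.9 for H2-D1, the next in order. Its counts were 27830.4 (FL), 28179.6 (M), 28762 and 29232 (NULL) in KO libraries, against 22186 (FL), 22268 (M), 17605 and 18995 (NULL) in WT libraries. The genotypes did not overlap, and the 4 KO libraries differed little among themselves. The rise with NULL virus was 1.59-fold (log2 0.67, SE 0.08, adjusted p = 0.0092), a smaller value than those of the heavy chains. The ratio of B2m to H2-K1 per kilobase was 10.6 to 11.4 in KO libraries, against 15.3 to 15.6 in the WT NULL pair.

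Tap1 and Tap2 encode the chains of the peptide transporter. Tap1 was at 996 (FL), 1138 (M), 1051 and 1127 (NULL) normalized counts in KO libraries, against 1062 (FL), 1074 (M), 799.8 and 743 (NULL) in WT libraries. The WT NULL pair was lowest, while the WT IL-33 libraries lay within the KO range. Tap1 rose 1.41-fold with NULL virus (log2 0.50, SE 0.10, adjusted p = 0.0443), a call lost with no filter on low genes (adjusted p = 0.0738) and with quantile normalization (0.0523). Tap2 was at 1145 (FL), 1208 (M), 1195 and 1213 (NULL) in KO libraries and at 1088 (FL), 761 (M), 882 and 908 (NULL) in WT libraries. No KO library overlapped a WT library, and the WT M library was the lowest. Its difference with NULL virus did not pass (log2 0.43, SE 0.16, adjusted p = 0.1970).

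Tapbp encodes tapasin, which ties the heavy chain to the transporter. It was at 5141 (FL), 5950.4 (M), 5993 and 6179 (NULL) normalized counts in KO libraries, against 4986 (FL), 3952 (M), 4174 and 4152 (NULL) in WT libraries. The genotypes did not overlap, although KO FL and WT FL lay close together. With NULL virus it missed the threshold (log2 0.55, SE 0.13, adjusted p = 0.0640).

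Psmb8 and Psmb9 encode LMP7 and LMP2, catalytic subunits that replace constitutive ones in the immunoproteasome. Psmb8 was at 355 (FL), 416 (M), 459 and 506 (NULL) normalized counts in KO libraries and at 239 (FL), 415 (M), 183 and 164 (NULL) in WT libraries. The WT M library reached the KO range, and the other 3 WT libraries lay below it. Psmb8 had the largest log2 change of the 10 genes with NULL virus, 2.77-fold (log2 1.47, SE 0.25, adjusted p = 0.0280). Psmb9, a low gene, was at 78.6 (FL), 77.1 (M), 83.2 and 88.5 (NULL) in KO libraries, against 48.5 (FL), 93.4 (M), 41.5 and 49.96 (NULL) in WT libraries. Its highest value was in the WT M library, and its difference with NULL virus did not pass (log2 0.90, SE 0.32, adjusted p = 0.1801).

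Nlrc5 encodes the transactivator of class I genes. It was the lowest per kilobase (8.96 normalized counts on average), at 65.7 (FL), 110.1 (M), 103.6 and 103.9 (NULL) normalized counts in KO libraries, against 49.7 (FL), 79.8 (M), 40.3 and 56.02 (NULL) in WT libraries. KO FL lay among the WT values. Its log2 difference of 1.11 with NULL virus had an SE of 0.35 and did not pass (adjusted p = 0.1394).

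The calls with NULL virus rested on H2-K1, H2-D1 and H2-T23 most firmly, since these passed whichever of the 8 libraries was left out (highest adjusted p-values 0.0371, 0.0429 and 0.0343). The count of 6 was 3 without KO NULL 1, KO NULL 2, WT NULL 1 or WT NULL 2 (beside 0.451% to 0.663% of all tested genes), where B2m, Tap1 and Psmb8 no longer passed. It was 4 without KO FL or KO M (beside 1.78% and 1.79%), where Tap1 and Psmb8 no longer passed, and 10 without WT FL or WT M, where 32.2% of all tested genes passed as well.

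**Figure D2:**
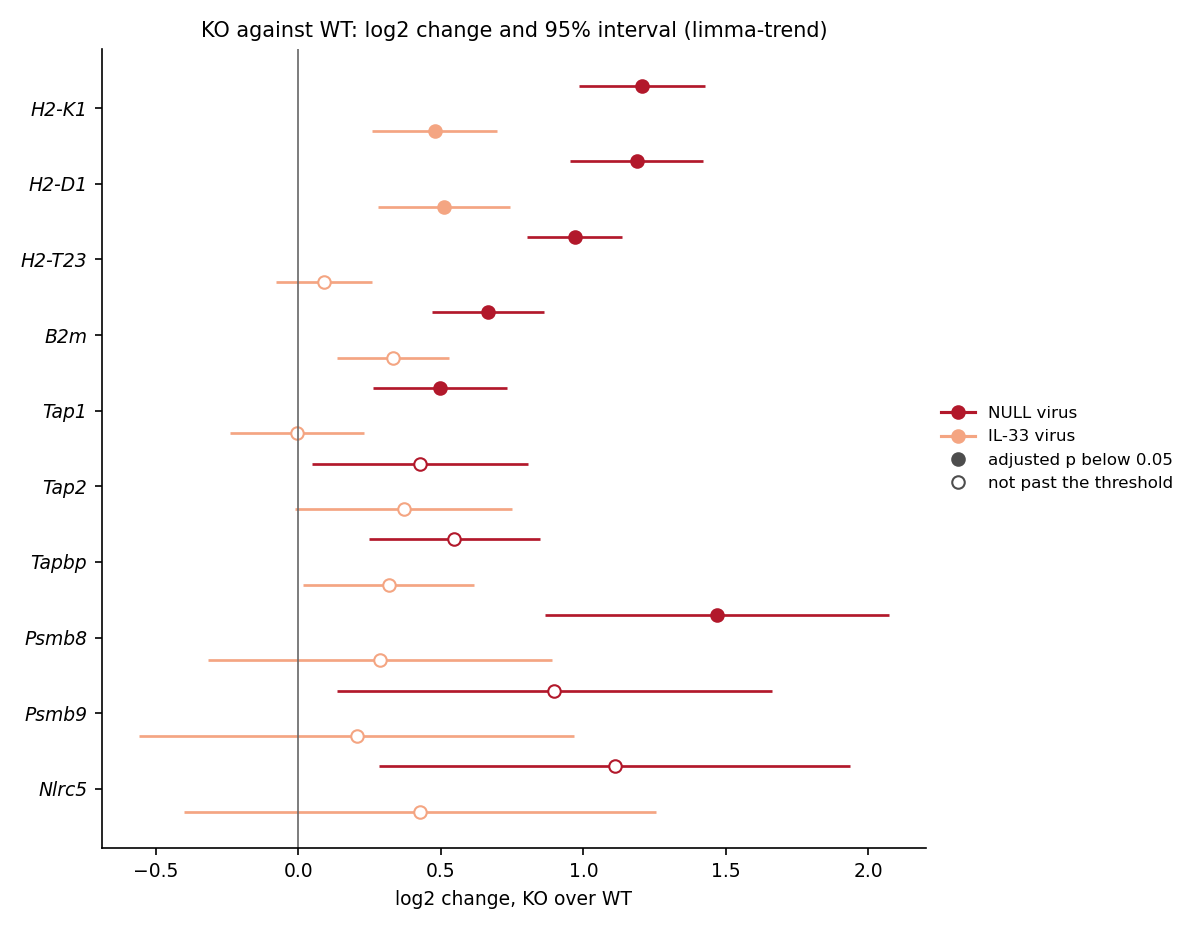
Fitted log2 change of KO over WT for each gene with its 95% interval, with NULL virus (dark) and with IL-33 virus (light). Filled points passed an adjusted p of 0.05. H2-K1 and H2-D1 passed with both kinds of virus, and the point for NULL virus lies to the right of the one for IL-33 virus in all 10 genes.

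Marker transcripts of other cells moved with genotype as well. With NULL virus the 6 markers of alveolar type 2 cells summed to 2393 to 2462 normalized counts in KO libraries, against 4037 to 4496 in WT libraries. Their defining marker Sftpc was at 1.36 and 0 in KO NULL libraries, against 969 and 765 in WT NULL libraries, and 4 of 5 tested markers fell. The endothelial markers summed to 220.2 to 223 in KO NULL libraries (417 to 445 in WT), and 2 of 5 fell. Ptprc, carried by all leukocytes, was at 401 and 395 in KO NULL libraries, against 245 and 253 in WT, and did not pass in this comparison. The macrophage markers summed to 19665 to 19872 in KO NULL libraries, against 18763 to 19610 in WT, with 0 of 9 past the threshold. The mesothelial markers summed to 561 to 563 in KO NULL libraries, against 1061 to 1070 in WT, with 0 of 5 past the threshold. The dendritic cell and class II markers summed to 603 to 662 in KO NULL libraries, against 455 to 470 in WT, and 1 of 4 fell. Fibroblast markers themselves summed to 964476 to 972033 in KO NULL libraries, against 1.194e+06 to 1.221e+06 in WT. The part of these cells in the class I differences was not tested. In bulk RNA, fewer cells of a type and less RNA per cell cannot be told apart.

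When the virus carried IL-33, the log2 difference between the genotypes was smaller in value for all 10 genes. In KO IL-33 libraries against WT IL-33 libraries, 2 of the 10 genes rose and 0 fell, beside 4.35% of all tested genes changed (2.76% higher and 1.60% lower). These were H2-K1 (1.39-fold, log2 0.48, SE 0.09, adjusted p = 0.0390) and H2-D1 (1.43-fold, log2 0.51, SE 0.10, adjusted p = 0.0377). B2m had a log2 difference of 0.33 (adjusted p = 0.0766), H2-T23 of 0.09 (95% interval -0.08 to 0.26) and Tap1 of -0.0045 (95% interval -0.24 to 0.23). The mesothelial markers summed to 387 to 432 in KO IL-33 libraries, against 899.6 to 3654 in WT IL-33 libraries, and the endothelial markers to 197 to 237, against 386 to 446, with 1 of 5 tested markers lower in each list. Their part was not tested. The count was 0 without any 1 of KO FL, KO M or the 4 NULL libraries, 5 without WT FL (beside 39.0% of all tested genes) and 4 without WT M (beside 22.9%), and it was 0 with no filter on low genes or with quantile normalization.

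Averaged over NULL and IL-33 virus, with 4 libraries of each genotype, 6 genes rose and 0 fell, beside 11.9% of all tested genes changed (6.86% higher and 5.08% lower). They were H2-K1 (log2 0.84, SE 0.07), H2-D1 (0.85, SE 0.07), H2-T23 (0.53, SE 0.05), B2m (0.50, SE 0.06), Tapbp (0.43, SE 0.09) and Psmb8 (0.88, SE 0.18), with adjusted p-values of 8.772e-04 to 0.0263. All 4 KO libraries lay above all 4 WT libraries for 6 genes (H2-K1, H2-D1, H2-T23, B2m, Tap2 and Tapbp), beside 11.5% of all tested genes. Ptprc rose in this comparison (log2 0.42), while 3 of 5 alveolar type 2, 2 of 5 endothelial, 2 of 5 mesothelial and 1 of 4 dendritic cell and class II markers fell, and their part was not tested. H2-K1, H2-D1, H2-T23 and B2m passed whichever library was left out, while Tapbp and Psmb8 lost their calls without KO FL, KO M or any NULL library. The count was 10 without WT M, beside 39.7% of all tested genes.

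The next comparison sets WT cells with IL-33 virus against WT cells with NULL virus. H2-T23 passed: its mean was 1633 ± 19.9 (SD, n = 2) normalized counts with IL-33 and 969.6 ± 9.89 (SD, n = 2) with NULL virus, a 1.68-fold rise (log2 0.75, SE 0.07, adjusted p = 0.0152). It was the only one of the 10 to pass, beside 0.264% of all tested genes changed (0.180% higher and 0.0837% lower). H2-D1 (log2 0.62, adjusted p = 0.0796), H2-K1 (log2 0.59, adjusted p = 0.0783) and Tap1 (log2 0.47, adjusted p = 0.1108) missed the threshold. For 6 genes (H2-K1, H2-D1, H2-T23, B2m, Tap1 and Psmb8) both IL-33 libraries lay above both NULL libraries, beside 24.0% of all tested genes, and for 0 genes did both lie below, beside 27.9%. The call of H2-T23 was lost without KO FL, KO M or any NULL library (adjusted p-values of 0.0862 to 0.2104), and the count was 8 without WT FL (7 higher and Tap2 lower, beside 48.2% of all tested genes) and 5 without WT M (all higher, beside 7.19%), where 1 WT IL-33 library was left. The alveolar type 2 markers summed to 3020.1 (FL) and 2089 (M) in WT IL-33 libraries, against 4496 and 4037 in WT NULL libraries, with 0 of 5 past the threshold. This comparison and that of KO with WT under NULL virus share the WT NULL pair, the lowest libraries for most of these genes.

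The spread in this test includes the difference between FL and M, and in WT cells that difference was wide. Il33 itself reached 593840 normalized counts in the WT FL library and 248956 in the WT M library, against 193 and 200.7 in the WT NULL pair, so the dose of transcript was not matched. Each IL-33 library was therefore also set against the NULL pair of its genotype, which assumes for a single library the spread of the NULL pairs.

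In the WT FL library 6 genes rose and 0 fell, beside 7.39% of all tested genes changed (3.50% higher and 3.90% lower). H2-T23 rose 1.67-fold (log2 0.74, adjusted p = 0.0016), H2-D1 1.41-fold (log2 0.50, adjusted p = 0.0024) and H2-K1 1.40-fold (log2 0.49, adjusted p = 0.0033). Tap1 (log2 0.46), B2m (log2 0.28) and Tapbp (log2 0.26) also rose, with adjusted p-values of 0.0245 to 0.0259. The count was 3 without KO NULL 1 or KO NULL 2, beside 2.82% and 2.84% of all tested genes. The macrophage markers summed to 19353 in this library, within 18763 to 19610 of the WT NULL pair, and Ptprc was at 307, against 245 and 253. Past the threshold, 1 of 9 macrophage, 1 of 5 endothelial and 4 of 9 fibroblast markers were higher in this library, and 1 of 4 dendritic cell and class II, 1 of 5 mesothelial and 1 of 9 fibroblast markers lower. Their part was not tested.

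In the WT M library 7 genes rose and 1 fell, beside 49.3% of all tested genes changed (22.5% higher and 26.8% lower); the count has to be read against that share. Psmb8 rose 2.38-fold (log2 1.25, adjusted p = 3.203e-04) and Psmb9 2.03-fold (log2 1.02, adjusted p = 0.0109), beside smaller values for the heavy chains H2-T23 (log2 0.76), H2-D1 (log2 0.74) and H2-K1 (log2 0.70). B2m and Tap1 rose too (log2 0.28 and 0.48). Tap2 fell by 0.23 on the log2 scale (adjusted p = 0.0327), a call lost with TMM factors (0.0525), with quantile normalization (0.0575), with the replicate block (0.0845) and on leaving out either KO NULL library or WT NULL 2 (0.0721 to 0.0731). Tap1 per kilobase was 0.975 times Tap2 in this library, against 0.565 to 0.674 in the other 7. All 9 tested macrophage markers, Ptprc (405, against 245 and 253) and all 5 mesothelial markers rose in the same library, and 7 of 9 fibroblast and 5 of 5 alveolar type 2 markers fell. Their part in the class I values was not tested.

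**Figure D3:**
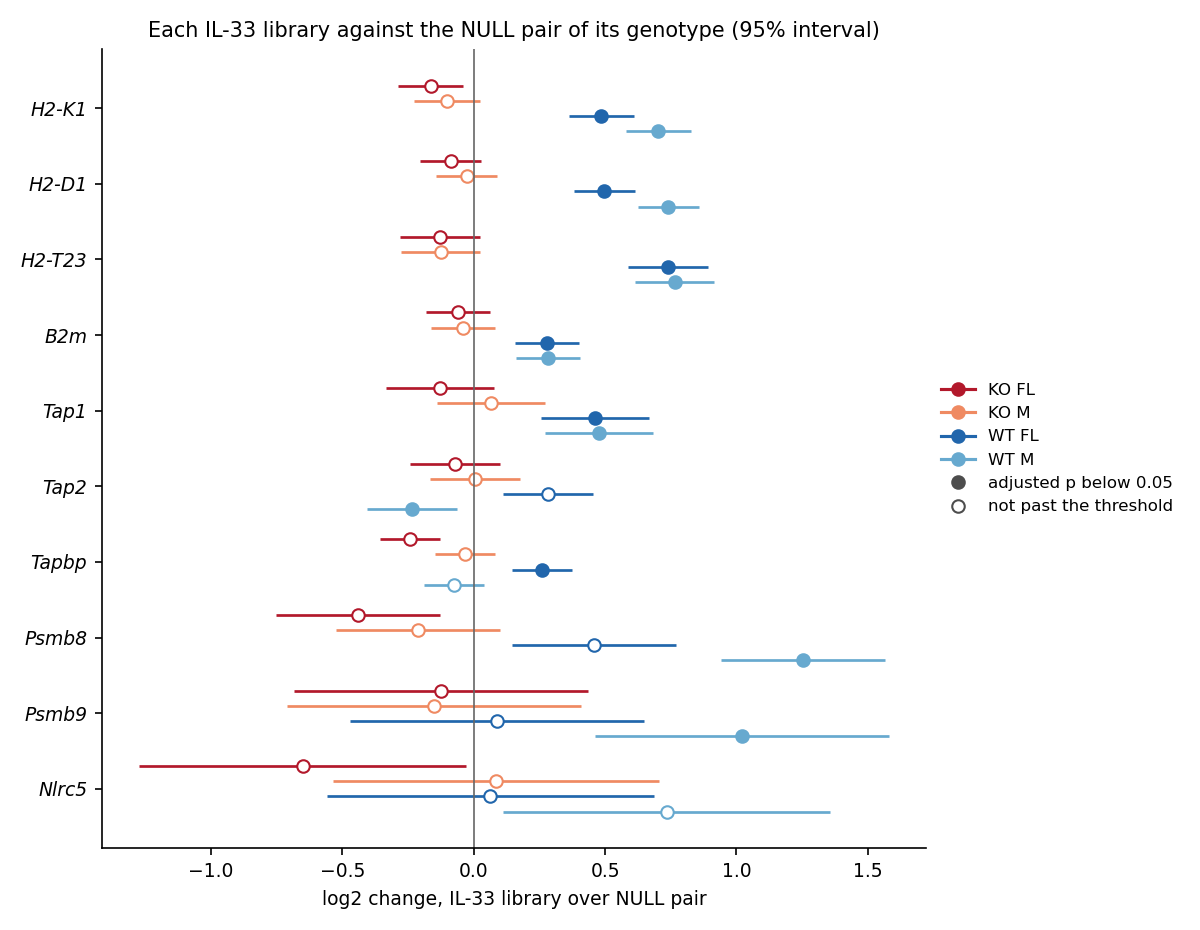
Fitted log2 change of each IL-33 library over the NULL pair of its genotype, with 95% intervals, for KO FL, KO M, WT FL and WT M. Filled points passed an adjusted p of 0.05. Filled points occur in the WT libraries, 6 for FL and 8 for M, with Tap2 below 0 in WT M, and 0 in the KO libraries.

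In KO cells IL-33 gave no call among the 10 genes. With limma 0 rose and 0 fell, 0 of 10 had an unadjusted p under 0.05, and 0.0193% of all tested genes changed (0.0193% higher and 0% lower). Only 3 of the 15527 tested genes passed, and the spread in this test again includes the difference between FL and M. The lack of calls therefore does not show that the 10 genes were unchanged. The 10 log2 differences were below 0, at -0.33 (Psmb8) to -0.03 (Tap1), though without KO FL those of Tap1, Tap2 and Nlrc5 were 0.06, 0.0053 and 0.08 and without KO NULL 2 that of Tap1 was 0.02, and the 95% interval of H2-K1 was -0.35 to 0.09. For 6 genes both KO IL-33 libraries lay below both KO NULL libraries, beside 22.0% of all tested genes. Il33 was at 1080220 normalized counts in the KO FL library and 81110 in the KO M library, against 216 and 214 in the KO NULL pair. Neither KO FL (0 of 10, beside 0.238% of all tested genes, 0.0708% higher and 0.167% lower) nor KO M (0 of 10, beside 0.0322%, 0.0258% higher and 0.00644% lower) gave a call on its own. Alveolar type 2 markers moved here: Sftpc was at 162 (FL) and 156 (M) normalized counts in KO IL-33 libraries, against 1.36 and 0 in KO NULL libraries, and 3 of 5 tested markers rose. Their summed level was 2418 to 2589 with IL-33 and 2393 to 2462 with NULL virus, and their part in the class I values was not tested. At an unadjusted p under 0.05 there were 4 of 10 for KO FL (H2-K1, Tapbp, Psmb8 and Nlrc5, all lower) and 0 for KO M. By p, Nlrc5 ranked only 1855 among the 15527 tested genes for KO FL, so many other genes passed this level too.

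The difference between these effects was tested directly. H2-T23 passed: its log2 IL-33 effect in KO cells minus that in WT cells was -0.88, with an SE of 0.10 and an adjusted p of 0.0481, so 0 of the 10 were higher and 1 lower. Of all tested genes 0.129% passed (0.0386% higher and 0.0902% lower). The difference was -0.73 (SE 0.13, adjusted p = 0.2468) for H2-K1 and -0.68 (SE 0.14, adjusted p = 0.3347) for H2-D1, which did not pass. All 10 were below 0, with the smallest for Tap2 (-0.06, and 0.20 without WT FL). The call was lost without KO FL, KO M or any NULL library (adjusted p-values of 0.3245 to 0.4489), with 8 added before the log, with no filter and with quantile normalization, while 7 genes passed without WT FL (beside 36.1% of all tested genes) and 4 without WT M (beside 3.15%), all lower. The same samples gave the effects above, so these values are no separate evidence.

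Between the IL-33 forms, FL and M, taken over both genotypes, limma called 0 of the 10 genes, as it did 0 of all 15527 tested genes (0%). At an unadjusted p under 0.05 there was 1, Nlrc5, with a log2 difference of -0.70 (95% interval -1.39 to -0.02, adjusted p = 0.6110). By p it ranked only 777 among the 15527 tested genes, so many other genes passed this level too. The intervals of H2-K1 (-0.64 to 0.36) and B2m (-0.31 to 0.29) allow differences of either sign. Without KO M the count was 3: Tap2 was higher with FL (log2 0.40, adjusted p = 0.0484), and Psmb8 (log2 -1.095, adjusted p = 0.0237) and Psmb9 (log2 -1.002, adjusted p = 0.0248) were lower, beside 32.5% of all tested genes called in that fit. Without WT M the differences of Psmb8 and Psmb9 were 0.0705 and 0.0981, and either way a single M library was left. Il33 was higher with FL than with M in both genotypes, at 1080220 against 81110 normalized counts in KO and 593840 against 248956 in WT. The form of IL-33 and the dose of its transcript therefore cannot be told apart here.

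With FL and M as separate groups (6 groups), the spread between them left the error and calls rose over the whole table. For KO against WT 10 of the 10 genes then passed with NULL virus (beside 32.8% of all tested genes), 5 with IL-33 virus (32.4%) and 10 averaged (40.8%), all higher. For IL-33 in WT 6 passed (37.4%), for IL-33 in KO 0 (0.174%), and for the difference of the effects 7, all lower (20.5%).

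The wider pathway was read by lists, whose counts describe these libraries. These lists too were chosen with earlier results of these data known. Of 23 other class I and class I-like heavy chains, 21 were in the table and 16 were tested, and with NULL virus 9 rose in KO cells and 0 fell, beside 2.58% and 1.70% of all tested genes, with a median log2 change of 0.92. H2-Q6 (Qa region) rose 2.67-fold, at 1227 (FL), 1432 (M), 1416 and 1386 (NULL) normalized counts in KO libraries, against 846 (FL), 963 (M), 539 and 508 (NULL) in WT libraries. H2-Q4 rose 2.59-fold, H2-Bl 2.41-fold and H2-T22 1.70-fold (adjusted p-values of 0.0017 to 0.0072). Class I heavy chains are close paralogs whose reads can be split among them, so these calls are not separate from those of H2-K1 and H2-D1. In WT cells with IL-33, 0 of the 16 passed, beside 0.264% of all tested genes, with a median log2 change of 0.59.

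In each of the other lists 0 or 1 gene passed between the genotypes with NULL virus, beside 4.28% of all tested genes. Among Psmb10, the third immunoproteasome subunit, its maturation factor Pomp and the PA28 activator genes Psme1 and Psme2, 0 of 4 passed (median log2 0.31; Psmb10 0.38, adjusted p = 0.0846). Of 16 constitutive proteasome genes 0 passed, with a median of 0.04. The ER aminopeptidase gene Erap1, which trims peptides for class I, rose 1.89-fold (log2 0.92, adjusted p = 0.0371) and was the 1 of 8 loading and trimming genes to pass. The leucine aminopeptidase gene Lap3 rose too (log2 0.58, adjusted p = 0.0239), 1 of 6 cytosolic peptidases. Averaged over NULL and IL-33 virus, where 11.9% of all tested genes passed, further genes of these lists differed between the genotypes. Pomp (log2 0.35), Psme2 (log2 0.43) and the constitutive gene Psma3 (log2 0.37) were higher in KO cells, beside Erap1 and Lap3. Uggt1 of the loading list was lower (log2 -0.42).

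**Figure D4:**
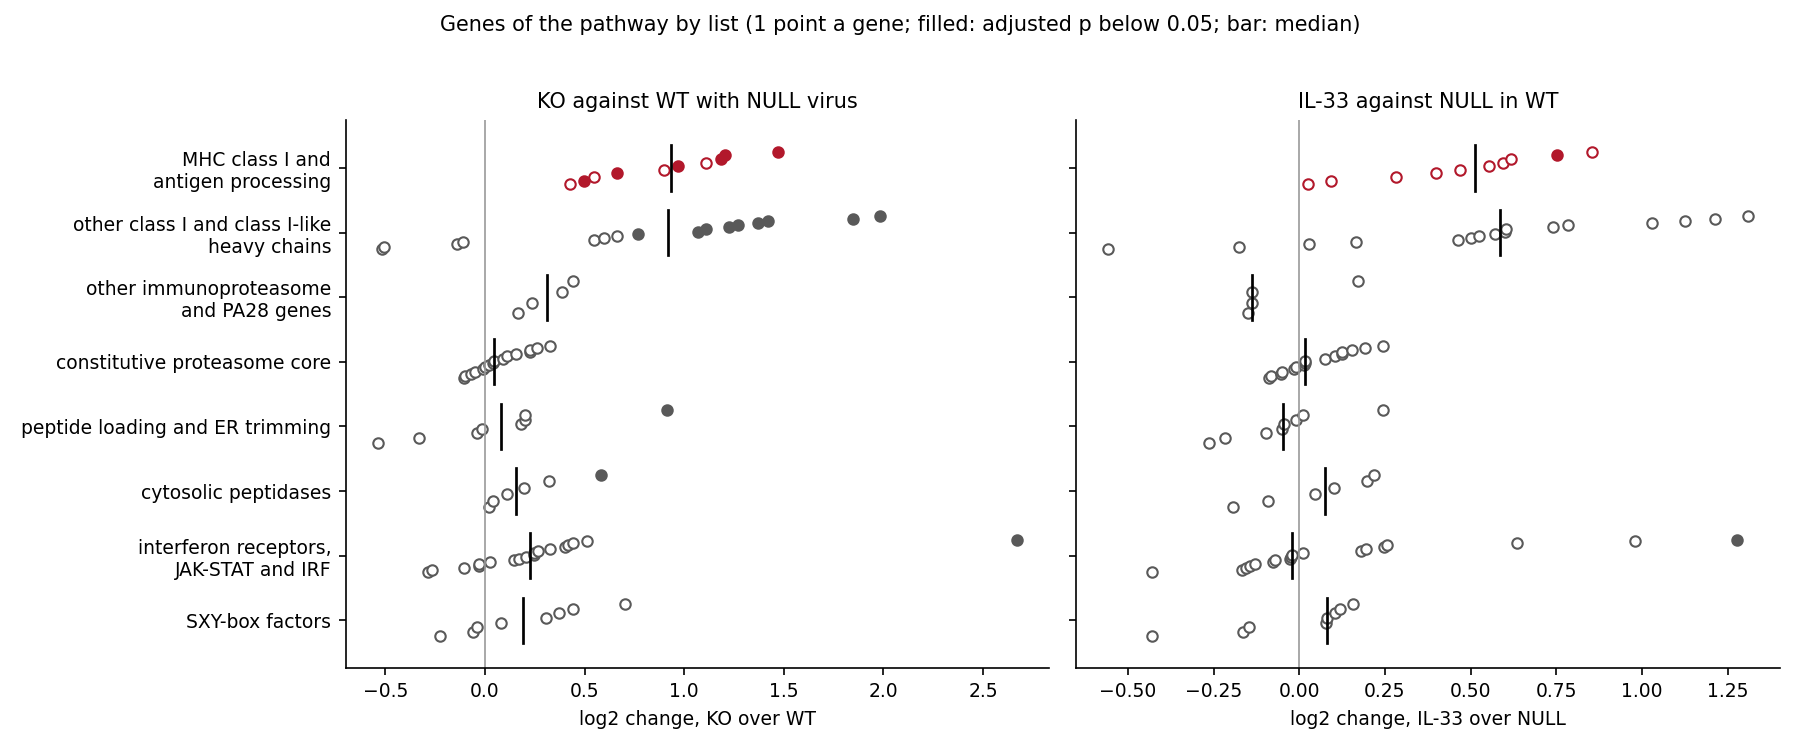
Log2 change of each tested gene in 8 lists, KO over WT with NULL virus on the left and IL-33 over NULL in WT on the right. Filled points passed an adjusted p of 0.05, and a bar marks each median. On the left panel all 10 class I genes and 12 of 16 other heavy chains lie to the right of 0, with medians of 0.93 and 0.92, while the constitutive proteasome has a median of 0.04.

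Among 18 genes of interferon receptors, JAK-STAT signalling and IRF factors, Irf7 was the 1 that rose with NULL virus, beside 2.58% of all tested genes. Irf7, a transcription factor induced by type I interferon, was at 4559 (FL), 5535 (M), 6642 and 6448 (NULL) normalized counts in KO libraries, against 2159 (FL), 2874 (M), 999 and 1056 (NULL) in WT libraries. The change was 6.37-fold (log2 2.67, SE 0.15, adjusted p = 4.352e-04). It was also the only gene of the 7 wider lists to pass for IL-33 in WT cells (log2 1.28, adjusted p = 0.0339). Irf1, another interferon-induced factor, had a log2 difference of -0.03 between KO and WT with NULL virus (adjusted p = 0.9207). Of the factors bound at class I promoters, 0 of 8 passed with NULL virus, beside 4.28% of all tested genes (median 0.19; Rfxank 0.71, adjusted p = 0.1431), and the class II transactivator Ciita was too low to test. Averaged over NULL and IL-33 virus, Atf1 (log2 0.52, adjusted p = 0.0108) and Rfxank (log2 0.70, adjusted p = 0.0358) were higher in KO cells. Jak2 was higher there too (log2 0.38, adjusted p = 0.0118), beside 11.9% of all tested genes. With IL-33 virus Atf1 (log2 0.60, adjusted p = 0.0391) and Jak2 (log2 0.43, adjusted p = 0.0442) passed, beside 4.35%.

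Transcripts were compared per kilobase of exon, each inducible subunit against its constitutive counterpart. All annotated exons of a gene were counted in its length (3381 bases for Psmb8 and 899 for Psmb5), so the size of a ratio depends on the annotation. Exchange of subunits in the proteasome itself was not measured. Psmb8 over Psmb5 was 0.0465 (FL), 0.0561 (M), 0.0668 and 0.0733 (NULL) in KO libraries, against 0.0335 (FL), 0.0523 (M), 0.0260 and 0.0227 (NULL) in WT libraries. Psmb9 over Psmb6 was 0.0174 to 0.0209 in KO libraries, against 0.0103 and 0.0123 in the WT NULL pair, 0.0122 in WT FL and 0.0221 in WT M. Both ratios were lowest in the WT NULL pair or close to it, and WT M reached the KO range for Psmb8 and passed it for Psmb9. Psmb10 over Psmb7 was 0.250 to 0.313 over all 8 libraries, with the genotypes overlapping.

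**Figure D5:**
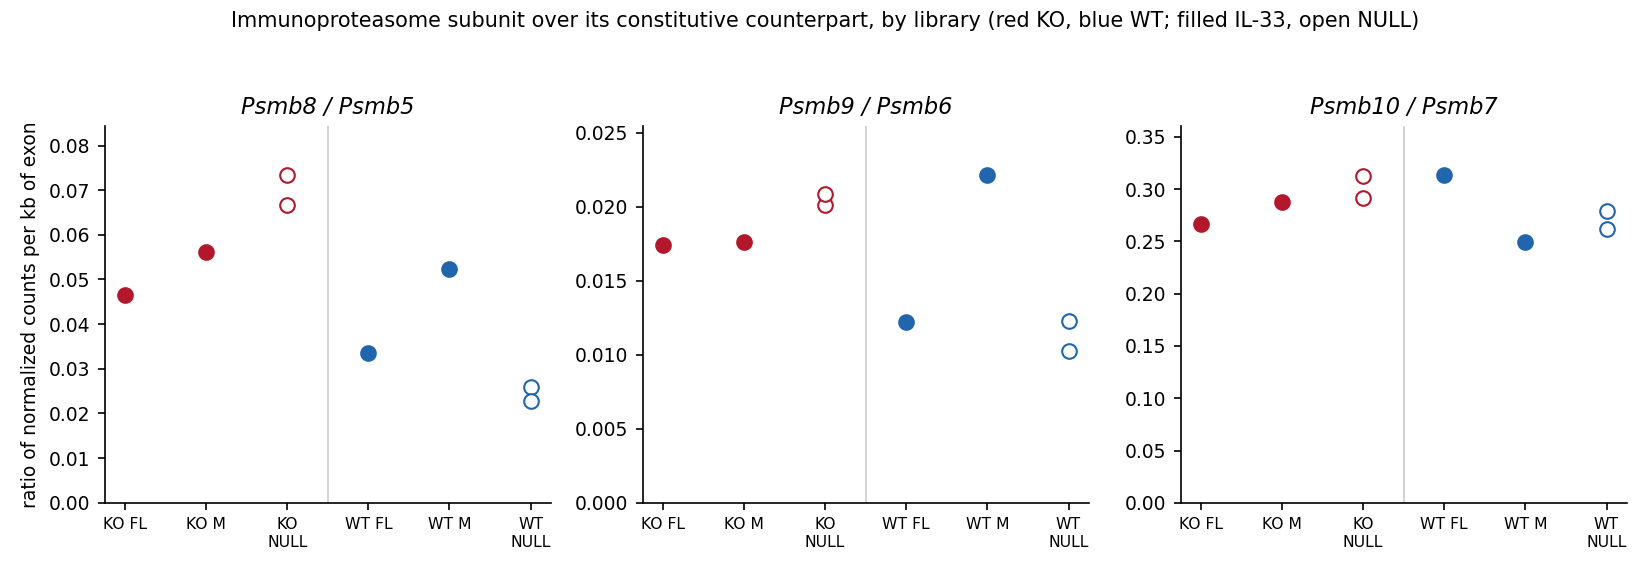
Ratio of normalized counts per kilobase of exon for each immunoproteasome subunit over its constitutive counterpart, by library (red KO, blue WT; filled IL-33, open NULL; axes from 0). The WT NULL pair sits at 0.0227 and 0.0260 for Psmb8 over Psmb5, below the KO libraries at 0.0465 to 0.0733, while Psmb10 over Psmb7 overlaps between genotypes.

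Likeness of pattern was measured as Pearson's r with the mean standardised log2 level of the 10 genes over the 8 libraries, which fall into genotype groups and share their normalization. That mean was 0.39 (FL), 0.78 (M), 0.81 and 0.96 (NULL) in KO libraries, against -0.30 (FL), -0.07 (M), -1.36 and -1.21 (NULL) in WT libraries. Among 11750 genes with a mean of at least 50, the 5 outside the set with the highest r were Irf7 (0.996), Oas1a (0.993), Ifi27l2a (0.993), Phf11d (0.993) and H2-Q6 (0.991). Within the set r was highest for H2-K1 (0.994) and lowest for Tap2 (0.720). Oas1a, which encodes a sensor of double-stranded RNA, was at 882 (FL), 963 (M), 1106 and 1137 (NULL) normalized counts in KO libraries, against 443 (FL), 596 (M), 170.4 and 196 (NULL) in WT libraries. In all, 274 genes outside the set had r above 0.9.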

How the data were processed

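The deposited values are a signal of normalized counts per gene, which the authors made with Salmon and DESeq2 on GRCm38.p6, per the submitters' processing notes, which name no version. Of low values, 59.9% to 71.3% were whole multiples of the step that fitted each library best (tolerance 0.02 steps), so whole reads were not recovered and no count model was run. Normalized totals were 2.39e+07 to 2.92e+07 per library, and read depth behind them is not known. Counting error of single genes was not separated from spread.

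Values were taken to log2 after adding 1, which understates changes of low genes, and genes with a mean of at least 10 were tested by a two-sided limma-trend test in R 4.3.3 with limma 3.58.1, with p-values adjusted by Benjamini-Hochberg over the 15527 genes of a comparison and a threshold of 0.05. One model of 4 groups (each genotype with NULL or IL-33 virus; degrees of freedom 4 residual and 2.82 prior) gave the KO and IL-33 comparisons and their difference. A model of 6 groups (2 residual and 4.78 prior) gave each IL-33 library against its NULL pair, and an additive model (2.94 prior) FL against M. The fit was tested on simulated data.

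Gene IDs were matched without version to GENCODE (54097 of 54331), which also gave exon lengths, and promoters came from RefSeq on GRCm38.p6. Named genes were the 10 members, up to 4 genes a list with the smallest p, and the 5 genes of most like pattern. H2-Q6, Irf7 and Oas1a come from these rules; the list genes named as called or too low were chosen after their values were seen. Members and lists were chosen with earlier results of these data known. Alternatives were quantile normalization or TMM factors, 0.5 or 8 as the added value, a minimum mean of 50 or none, 6 groups, a block for the replicate number and the omission of each library in turn. Python 3.11.15, pandas 2.3.3, numpy 2.4.6, Biopython 1.88 and matplotlib 3.10.9 were used.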

Additional observations from a re-analysis of the deposited data

Results flagged for a closer look

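H2-T23, the Qa-1 heavy chain, passed the direct test of a difference in IL-33 effect between the genotypes. The effect in KO cells minus that in WT cells was -0.8795 on the log2 scale (SE 0.10, limma adjusted p = 0.0481). This call was lost with 8 added before the log (adjusted p = 0.0540), no filter (0.0827), quantile normalization (0.0539) and the replicate block (0.2678). The mean of H2-T23 was 1739 ± 2.73 normalized counts in KO IL-33 libraries, against 1900.3 ± 33.3 in KO NULL libraries, and 1633 ± 19.9 in WT IL-33 libraries, against 969.6 ± 9.89 in WT NULL libraries (SD, n = 2 each). The adjusted p lies just under the threshold, and over the 8 fits that each leave out a library it ran up to 0.4489, with 2 of 8 past the threshold (those without WT FL or WT M).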

How the results depend on the processing

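The 10 genes are read from 8 libraries, with 2 per group at most, so 1 library can move a count. The number of genes called was 10 in 6 groups for KO against WT with NULL virus and averaged over inserts (6 each in 4 groups). Those fits in 6 groups called 32.8% and 40.8% of all tested genes. For KO against WT with IL-33 virus (2) the count was 0 with no filter, with quantile normalization and with the replicate block. Those fits called 1.65%, 4.26% and 1.01% of the genes fitted. In 6 groups the count was 5, beside 32.4%. For IL-33 in WT (1) the count was 0 with the replicate block (beside 0% of the genes fitted) and 6 in 6 groups (37.4%). For the difference of the IL-33 effects (1) the count was 0 with 8 added, with no filter, with quantile normalization and with the replicate block. Those fits called 0.0773%, 0.0495%, 0.0966% and 0.00644% of the genes fitted. In 6 groups the count was 7, beside 20.5%. For WT FL (6) the count was 1 with no filter and 3 with the replicate block, beside 4.29% and 2.13% of the genes fitted. For WT M (8) it was 5 with no filter, beside 20.0%. In 6 groups the spread between FL and M leaves the error, and 32.8% of all tested genes were called for KO with NULL virus.

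The numbers of the NULL libraries share no stated origin, and the differences within the KO and WT NULL pairs correlated at 0.0231 over 15527 genes, so the numbers were not taken to pair samples. With the replicate block, the count was 4 for KO against WT with NULL virus and 4 averaged over inserts. Beside these, 1.68% and 6.18% of all tested genes were called, against 4.28% and 11.9% without the block.

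Leaving out each library gave 3 to 10 calls for KO against WT with NULL virus, 0 to 5 with IL-33 virus, 4 to 10 averaged, 0 to 8 for IL-33 in WT, 0 to 7 for the difference of effects, 0 to 3 for FL against M, 3 to 6 for WT FL and 7 to 8 for WT M, and 0 for IL-33 in KO, KO FL and KO M. The highest count of each of the first 6 came from fits without WT FL, WT M or KO M that called 32.2% to 48.2% of all tested genes. With NULL virus the count was 5 with no filter, without Tap1 (beside 1.60% of the genes fitted), and with quantile normalization Tap1 was lost and Tapbp called.

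Signs turned for uncalled genes under quantile normalization, Nlrc5 in WT FL (-0.0066) and Tapbp in WT M (0.1028). On leaving out a library, log2 changes ran from -0.1007 to 0.0918 for Tap1, -0.111 to 0.6845 for Psmb8 and -0.2598 to 0.6704 for Psmb9 (KO against WT with IL-33 virus), from -0.234 to 0.282 for Tap2 and -0.0751 to 0.2603 for Tapbp (IL-33 in WT), from -0.3151 to 0.2009 for Tap2 (difference of effects), and from -0.0409 to 0.2199 for Psmb9 and -0.169 to 0.2958 for Nlrc5 (WT FL). The cause was not tested. Of 540 values for single genes under the other settings in the 7 comparisons with calls, 482 kept direction and side of the threshold.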
